A study of Mus musculus with 23 samples.

Results

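The Hippo pathway genes described here are 10 of the 18412 genes of the deposited tables: the kinases Stk3, Stk4, Lats1 and Lats2, the adaptor Sav1, the coactivators Yap1 and Wwtr1, and the target genes Ctgf, Cyr61 and Ankrd1. They were picked by symbol, and each of the 10 had a row in every one of the 6 tables. RNA with a poly(A) tail was sequenced from mouse embryonic stem (ES) cells grown with serum and LIF on gelatin, in 23 libraries of 11 groups that form 3 series. One series compared genotypes: wild-type AB2.2 cells (n = 2), line B9 (Blm-/-;Ago1,3,4-/-, n = 2), line E7 (Blm-/-;Ago1,2,3,4-/-;CreERT2;hAgo2fl, a floxed human Ago2, n = 3) and clones C62 and C86 (Blm-/-;Ago1,2,3,4-/-;CreERT2, n = 2, 1 library of each), which have no Argonaute. These libraries form the genetic series. A time course and a rescue used a clonal line called TT-FHAgo2, which has the genotype of C62 and C86 and in addition the transgene TT-FHAgo2, from which doxycycline induces Ago2. Its cells are propagated in 0.1 µg/mL doxycycline. In the time course they got 2.5 µg/mL during 48 h, and RNA was taken 0, 24, 48 or 96 h after its removal (2 libraries per time). In the rescue, cells without doxycycline for 96 h (n = 2) were compared with cells that after those 96 h got 0.1 or 2.5 µg/mL back for 48 h (2 libraries per dose), so the latter spent 48 h more in culture. Every mutant group lacks Blm as well as Argonautes, and AB2.2 carries neither change, so effects of Blm cannot be told apart from those of Argonautes in comparisons with wild type. The 2 clone libraries come from different clones, so their spread is between clones. For the other groups the labels do not say whether libraries of 1 group came from separate cultures. The p-values measure the spread between these libraries, which may be technical outside the clones, and tests of the genetic series pool both kinds of spread.

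In the Hippo pathway, the kinases Stk3 and Stk4 (Mst2 and Mst1) act with the adaptor Sav1 to activate Lats1 and Lats2. These phosphorylate the coactivators Yap1 and Wwtr1 (Taz), which are then held in the cytoplasm or degraded. When not phosphorylated, Yap1 and Wwtr1 bind Tead factors on DNA and induce genes such as Ctgf, Cyr61 and Ankrd1. The pathway acts mainly through phosphorylation and location of proteins, which mRNA levels do not measure. Argonautes load microRNAs, whose seed (bases 2 to 8) pairs with sites in the 3' UTRs of mRNAs and lowers their levels or translation. Mouse ES cells express mainly microRNAs of the miR-290 cluster and its relatives, and Lats2 is a known target of their seed.

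Because the cells compared differ in Argonautes, the sequences that relate this microRNA family to Lats1 and Lats2 are shown first. The mature microRNAs below (RefSeq, GRCm38.p6) share the seed in capitals.
miR-294-3p: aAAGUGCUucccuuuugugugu
miR-295-3p: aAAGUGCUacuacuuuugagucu
miR-291a-3p: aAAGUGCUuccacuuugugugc
miR-302b-3p: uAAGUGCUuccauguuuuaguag
miR-302d-3p: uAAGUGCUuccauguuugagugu
The DNA form of the matching site is AGCACTT, on the strand of the mRNA. The 3' UTR of Lats2 (1626 bases, GENCODE M21, GRCm38) held 2 such sites, and those of Lats1, Stk4 and Wwtr1 held 1 each. They stand in capitals in the 30-base windows below, with the first and last base of the window in the genome.
Lats2, first site, chr14:57691086-57691115, minus strand: aaaattagtacagtatggaaagAGCACTTa
Lats2, second site, chr14:57690987-57691016, minus strand: ttccatgtgtgttgtatctgatAGCACTTg
Lats1, chr10:7714134-7714163, plus strand: taaggatatggctcagtggtagAGCACTTg
Stk4, chr2:164151865-164151894, plus strand: gctagactcatgtctgttagccAGCACTTc
Wwtr1, chr3:57457021-57457050, minus strand: ttaattccttgctctctctctgAGCACTTc
The first Lats2 site is followed by A, the form known as an 8mer, and the 4 others are 7mers. The other 6 members, Stk3, Sav1, Yap1, Ctgf, Cyr61 and Ankrd1, had 0 of these sites. Of 13566 genes tested in the time course with a 3' UTR in the annotation, 17.1% had at least 1. Their median 3' UTR was 1147 bases long, against 3450 for Lats1, 3693 for Stk4 and 3277 for Wwtr1, and longer stretches hold more matches of any 7 letters. Lats2 also held 1 match to the seed of miR-92a-3p (site GTGCAAT, in 7.24% of these genes), and Wwtr1 held 2 to miR-291b-3p (TGCACTT, 13.9%) and 1 to miR-17-5p and miR-20a-5p (GCACTTT, 14.1%), which overlaps 1 of the 2. The miR-291b, miR-17 and AAGUGCU seeds share letters. A match is a description of the sequence and not evidence that the site is used.

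Exon reads per library numbered 13516827 to 53691774 among genotypes (E7 without 101 abundant genes), 32874536 to 62399060 over the time course, and 24702128 to 53767538 for the rescue. The deposited values are group means, from which the reads of each library were worked out. Libraries are numbered by depth, separately for exons and introns, since the columns carry no replicate number. The same number in exons and introns need not be the same library. When exon and intron libraries were paired by correlation, the numbers differed in B9, in E7 and at 96 h. Libraries of 1 group differed by a median of 0.326 to 0.57 on the log2 scale in the genetic series, most in the clones, and by 0.0733 to 0.106 in the time course and rescue, so that smaller changes could be seen there. Ago1, deleted in every mutant group, had 3514 and 4693 normalised exon reads in the wild-type libraries and 0 in the 21 others. Gene-wide Ago2 exon reads did not follow the design: they were 11963 ± 288 (SD, n = 2) at 0 h and 10794 ± 32.6 at 96 h, and 7280 ± 28.5 without doxycycline and 5689 ± 572 at 2.5 µg/mL, so they do not show how much Ago2 was lost or regained. All 10 ES cell markers were expressed in each group, with a summed level of 497100 at 0 h and 514900 at 96 h. Of 9 fibroblast or feeder markers 4 to 6 were below 10 normalised reads in every group, and Col3a1 was at 0 in every group but wild type.

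Lats2 (ENSMUSG00000021959, mm10 chromosome 14, 57689662 to 57758388), the kinase that directly phosphorylates Yap1 and Wwtr1, changed most of the 9 members tested. Its normalised exon reads were 643 and 687 (0 h), 545 and 496 (24 h), 1149 and 995 (48 h), and 2718 and 2290 (96 h). The libraries of neighbouring times did not overlap: the 24 h group was the lowest, and 48 h and 96 h each lay above the group before. Against 0 h Lats2 fell by 0.35 on the log2 scale at 24 h (SE 0.09, adjusted p = 0.00323) and was 0.69 higher at 48 h (adjusted p = 9.9e-07) and 1.91 higher at 96 h (SE 0.09, 3.75-fold, adjusted p = 2.41e-14; limma on log2 of normalised reads plus 1, as in all tests here). Lats2 thus went down first and then rose by 1.04 from 24 to 48 h and by 1.22 from 48 to 96 h (adjusted p = 1.52e-08 and 8.09e-10).

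Lats1 (ENSMUSG00000040021, chromosome 10, 7681214 to 7716460), its relative with the same substrates, had already risen at 24 h. Its exon reads were 2479 and 2759 (0 h), 3164 and 3072 (24 h), 4185 and 4359 (48 h), and 4545 and 4777 (96 h). The groups were in the order of time with no overlap. The log2 change against 0 h was 0.25 at 24 h (SE 0.06, adjusted p = 0.000683), 0.71 at 48 h and 0.83 at 96 h (adjusted p = 1.72e-10 and 7.43e-12). The last step, from 48 to 96 h, was 0.13 and did not pass (adjusted p = 0.0871; 0.0497 with limma voom).

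Of the 9 members tested, 6 rose from 0 to 96 h (Lats1, Lats2, Sav1, Wwtr1, Yap1 and Cyr61) and 0 fell, and 3 did not pass. Over all 13652 genes tested 65% were called in this comparison (32.4% of all genes upward), so a share of 6 in 9 called is near the background. The median log2 change of the members was 0.25, against -0.01 over all genes. At 24 h 3 members had risen (Lats1, Sav1, Wwtr1) and 3 had fallen (Lats2, Ctgf, Cyr61), with 50.7% of genes called. At 48 h against 0 h 5 had risen and 2 had fallen (63.3% of genes called). Of the steps between times, 48 h against 24 h had 3 members higher and 1 lower (39% of genes called), and 96 h against 48 h had 4 higher and 0 lower (36.4%).

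**Figure D1:**
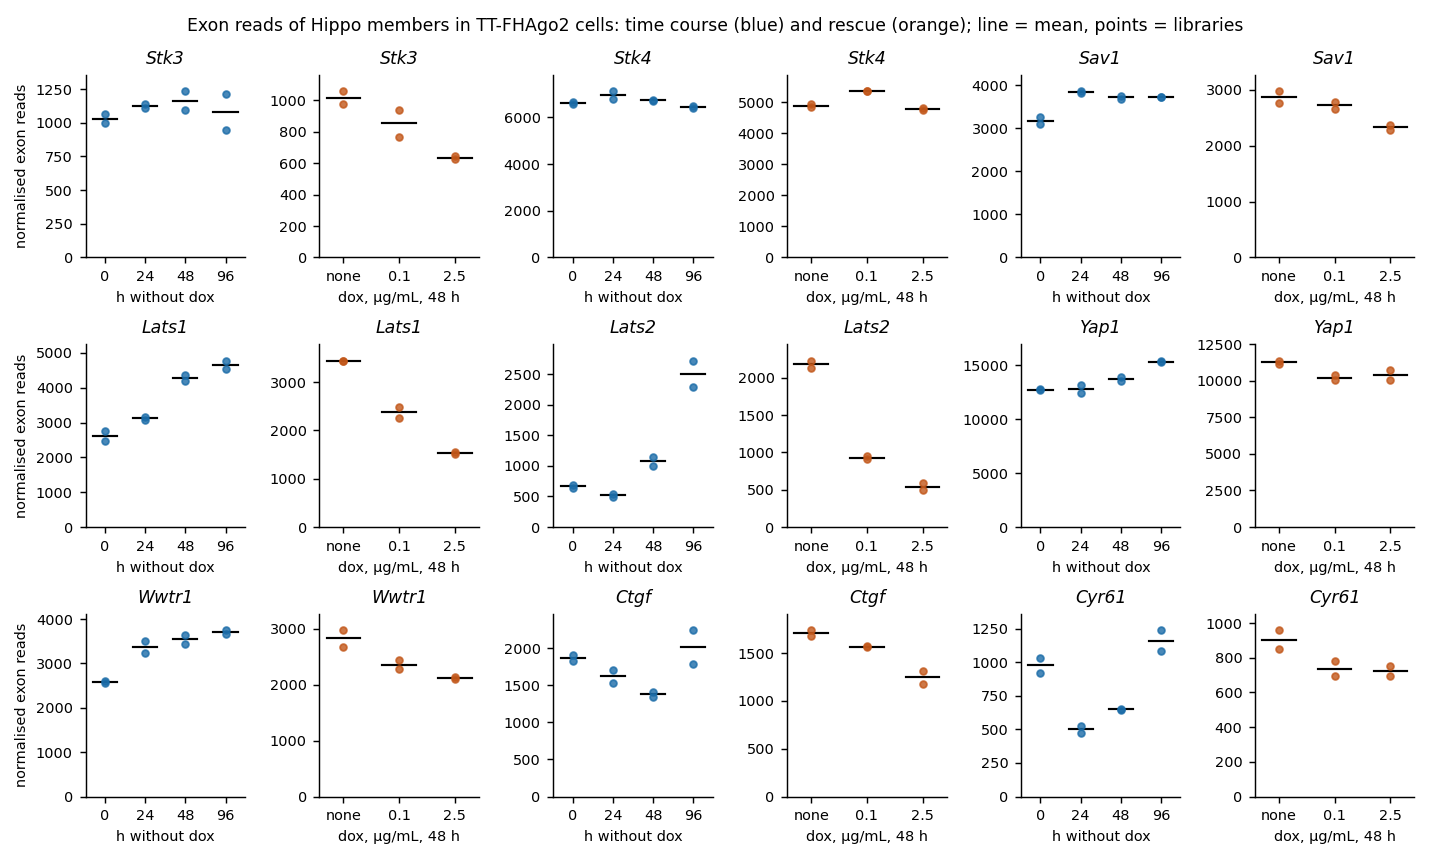
Normalised exon reads (vertical axes, from 0) of 9 members against hours without doxycycline (blue, time course) and against the dose given back for 48 h (orange, rescue), with 1 point per library and a line at the mean of 2. Lats2 is lowest at 24 h and highest at 96 h, and falls from 2231 and 2140 reads (no doxycycline) to 585 and 501 (2.5 µg/mL), while Stk4 stays between 6385 and 7124 reads in the time course.

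Lats1 and Lats2 were lower in the cells given doxycycline back. These cells also spent 48 h more in culture, so dose and time cannot be told apart in comparisons with no doxycycline. Lats2 had 2231 and 2140 normalised exon reads without doxycycline, 950.0 and 914 (0.1 µg/mL) and 585 and 501 (2.5 µg/mL). The 3 groups were apart and ordered by dose. Its log2 change was -1.23 at 0.1 µg/mL (SE 0.09, adjusted p = 1.42e-11) and -2.01 at 2.5 µg/mL (SE 0.09, 4.03-fold lower, adjusted p = 6.5e-17), and the higher dose against the lower gave -0.78 (adjusted p = 5.16e-08). Lats1 had 3445 and 3443 reads without doxycycline (none), 2255 and 2496 (0.1 µg/mL) and 1562 and 1505 (2.5 µg/mL). It too was ordered by dose with no overlap, with log2 changes of -0.54 (SE 0.06, adjusted p = 1.11e-07) and -1.17 (2.25-fold lower, adjusted p = 7.47e-15) and -0.63 between the doses (adjusted p = 8.92e-09).

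At 2.5 µg/mL 8 of 9 members were lower than without doxycycline, 0 were higher, and Stk4 did not pass (log2 change -0.03). Over all 13176 genes 63.8% were called (32% of all genes downward). The median of the members was -0.41, against 0.00 over all genes. At 0.1 µg/mL 6 members were lower and Stk4 was higher (44.1% of genes called). Between the doses 6 were lower at 2.5 µg/mL (41% called): Lats1, Lats2, Stk3, Stk4, Sav1 and Ctgf. The time course and the rescue share no library, though all of their cells are TT-FHAgo2. Leaving out any 1 of the libraries compared reduced the number of members called at 0.1 µg/mL. The share of all genes called was not worked out for those fits.

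Intron reads, which come mostly from unspliced RNA, were not called higher than at 0 h for either Lats gene. On introns 3 of 9 members were called at 24 h (37.2% of 12225 genes), 3 at 48 h (43.4%) and 2 at 96 h (44.6%) against 0 h, and 2 from 48 to 96 h (17.1%). Lats2 intron reads were 146 and 156 (0 h), 98.7 and 62.6 (24 h), 70.7 and 108 (48 h), and 149 and 141 (96 h). They were lower than at 0 h at 24 h (log2 change -0.93, SE 0.23, adjusted p = 0.00183) and 48 h (-0.78, adjusted p = 0.00646) and not at 96 h (-0.06, SE 0.23, adjusted p = 0.864). From 48 to 96 h they rose by 0.72 (adjusted p = 0.0275). Lats1 intron reads were 442 and 448 (0 h), 343 and 353 (24 h), 381 and 350 (48 h), and 373 and 423 (96 h). All later libraries were below both of 0 h, and the change passed at 24 h (-0.35, adjusted p = 0.0147) and 48 h (-0.29, adjusted p = 0.0421) but not at 96 h (-0.16). These intron calls were lost in some refits. Lats2 lost its call at 24 h without library 2 of that time (-0.61, adjusted p = 0.0611) and at 48 h without library 1 of that time (-0.48, adjusted p = 0.177). Its rise from 48 to 96 h was lost in 4 of 6 alternatives: without library 1 of 48 h (0.43, adjusted p = 0.38), without library 1 or 2 of 96 h (adjusted p = 0.137 and 0.105) and without the filter on low values (adjusted p = 0.0919). The Lats1 call at 48 h was lost without any of the 4 libraries compared (adjusted p = 0.0706 to 0.255), and that at 24 h without either 0 h library or library 1 of 24 h (adjusted p = 0.0505 to 0.0722).

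The difference between exon and intron change was therefore tested directly, gene by gene. From 0 to 96 h it was 1.96 for Lats2 (SE 0.30, adjusted p = 0.0236) and 0.99 for Lats1 (SE 0.12, adjusted p = 0.0153), both toward more exon reads than intron reads. At 48 h it was 1.47 and 0.996 (adjusted p = 0.0392 and 0.0167). Of 9 members 3 were called at 96 h, and 9.08% of 11939 genes were called either way. At 48 h 2 of 9 were called (9.33% of genes), and at 24 h 0 of 9 with limma, 2 at an unadjusted p below 0.05 (4.12% of genes called). The third at 96 h was Cyr61, in the other direction (-1.46, SE 0.31, adjusted p = 0.0422). Its mean intron reads were 7.00 (0 h), 2.41 (24 h), 8.49 (48 h) and 25.1 (96 h). Only the 96 h mean lay above the limit of the filter on low values, so Cyr61 was tested because it was high at 96 h. Its call, and its place in the count of 3, rest on that selection and on 7 intron reads in each 0 h library. Wwtr1, which also holds a seed match, had 0.57 (SE 0.15, adjusted p = 0.0659), and Stk4, with a match near the start of its 3' UTR, had 0.12 (adjusted p = 0.398). Cyr61 holds no match, nor do Yap1 (0.16), Sav1 (-0.18), Ctgf (-0.25) and Stk3 (-0.38), which did not pass. A link between matches and these differences was not tested. In the rescue, 2.5 µg/mL gave -1.19 for Lats1 (SE 0.15, adjusted p = 0.0254) and -1.12 for Lats2 (SE 0.34, adjusted p = 0.0961), where 11.3% of genes were called and 1 of 8 members. Lats1 intron reads did not move with dose (249.95 and 307 with none, 312 and 268 (2.5 µg/mL); log2 change 0.06, adjusted p = 0.753). On introns 4 of 8 members were lower at 2.5 µg/mL than with none (46.4% of genes called) and 3 of 8 lower than at 0.1 µg/mL (34.3%). Lats2 intron reads fell from 147 and 131 to 57.2 and 101 (-0.86, SE 0.26, adjusted p = 0.00789), a call lost without library 1 of either group (adjusted p = 0.084 and 0.151). None of the 6 calls on this difference held when any 1 library of the groups compared was left out (adjusted p = 0.0666 to 0.162), and 4 of them were also lost without the filter on low values (adjusted p = 0.0551 to 0.0882). The pairing of exon with intron libraries was weak in TT-FHAgo2 cells, with a correlation of 0.0291 to 0.167.

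**Figure D2:**
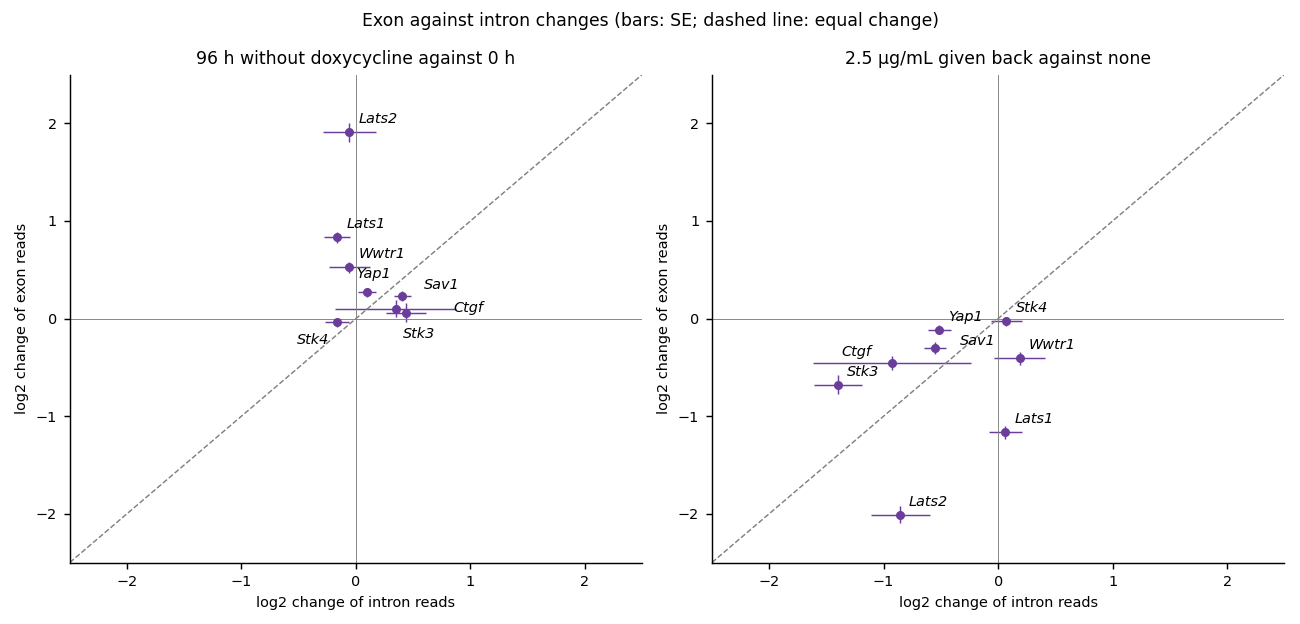
Log2 change of exon reads (vertical) against log2 change of intron reads (horizontal) for the 8 members with intron tests in both (Cyr61 is not drawn), from 0 to 96 h without doxycycline (left) and from no doxycycline to 2.5 µg/mL (right); bars are SE and the dashed line marks equal change. Lats2 and Lats1 lie farthest above the line on the left, with intron changes of -0.06 and -0.16, and farthest below it on the right.

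Among genotypes Lats2 was again the member that changed most. It had 257 and 215 normalised exon reads in wild type, 205 and 182 (B9), 514, 554 and 394 (E7), and 2680 and 3032 (clones). The order was B9, wild type, E7 and clones, with no overlap between neighbours. The clones were above wild type by 3.60 on the log2 scale (SE 0.29, 12.1-fold, adjusted p = 0.000236), above B9 by 3.88 (adjusted p = 0.000169) and above E7 by 2.56 (SE 0.27, 5.90-fold, adjusted p = 0.00269). E7 was 1.03 above wild type without passing (SE 0.27, adjusted p = 0.0525), and B9 did not differ from wild type beyond the spread (-0.28, SE 0.29, adjusted p = 1). Lats2 was the only member called in the clones against wild type, 1 of 9, with 18.6% of 13142 genes called, and against E7, with 1.51% called. With library 1 of the clones left out, 1 library of 1 clone remained, and more members were called against wild type and E7. The share of all genes called was not worked out for that fit. Intron reads of Lats2 were 43.7 and 64.3 (wild type), 93.5, 52.7 and 73.8 (E7), and 144 and 176 (clones), and the log2 change of 1.57 against wild type did not pass (SE 0.47, adjusted p = 0.0816). On introns 0 of 8 members passed with limma in each of the 6 comparisons of genotypes. Of all genes 4.01% passed for the clones against wild type, 0.131% against E7 and 1.26% against B9, 0.558% for E7 against wild type, 0.00872% for E7 against B9 and 0 for B9 against wild type. In that order 3, 1, 1, 1, 0 and 0 members had an unadjusted p below 0.05. The exon minus intron difference for Lats2 was 2.00 against wild type (SE 0.35, adjusted p = 0.219), where 1 gene of 11097 passed (0.00901%), and 0 of 8 members passed with 3 at an unadjusted p below 0.05.

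**Figure D3:**
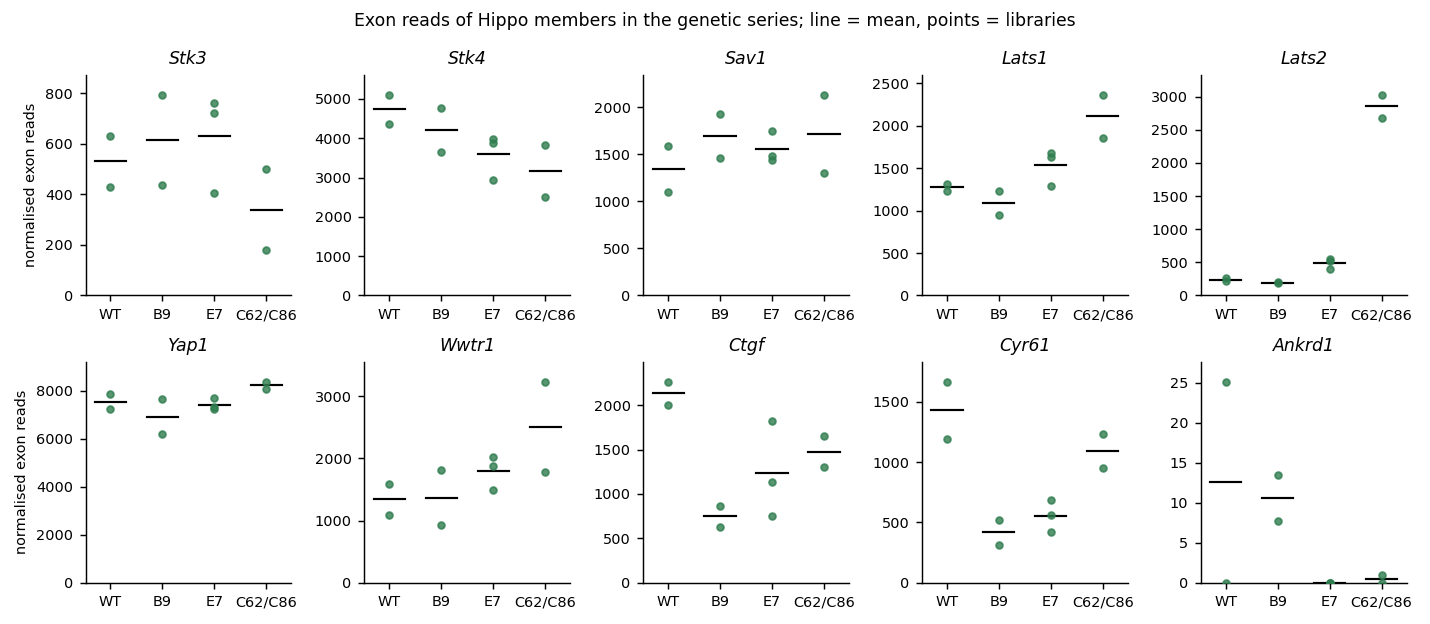
Normalised exon reads (vertical axes, from 0) of the 10 members in wild-type AB2.2, B9, E7 and clone (C62/C86) libraries, 1 point per library and a line at the mean. Lats2 stands at 2680 and 3032 (clones) and at 554 or less elsewhere, and Cyr61 is at 951 or more in wild type and clones and at 688 or less in B9 and E7.

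Lats1 in the genetic series had 1231 and 1315 reads (wild type), 952 and 1232 (B9), 1296, 1630 and 1675 (E7), and 2368 and 1854 (clones). Both clone libraries were above all 7 others. The clones were 0.95 above B9 (SE 0.26, adjusted p = 0.0347, with 13% of genes called), while 0.72 against wild type did not pass (adjusted p = 0.0735). The call against B9 was lost with only these groups in the fit (adjusted p = 0.137), without either B9 library (0.213 and 0.0767) and without library 1 of the clones (0.0595). Against B9 3 of 9 members were called (Lats1, Lats2 and Cyr61, all higher in the clones). For E7 against B9 0 of 9 passed with limma, 1 at an unadjusted p below 0.05, with 0.0685% of genes called.

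Of the 3 members upstream of Lats1 and Lats2, Stk3 changed in the rescue, Sav1 changed in both series of TT-FHAgo2 cells, and Stk4 was nearly level. Stk3 (ENSMUSG00000022329, chromosome 15, 34875496 to 35178921) ranged from 1031 to 1163 mean exon reads over the time course with no call with all libraries. In the rescue it had 974 and 1058 reads (none), 769 and 940 (0.1 µg/mL) and 644 and 625 (2.5 µg/mL). The libraries at 2.5 µg/mL lay below all others, with a log2 change of -0.68 against no doxycycline (SE 0.10, adjusted p = 1.2e-06) and -0.42 against 0.1 µg/mL (adjusted p = 0.00117; 0.0687 without library 2 of the lower dose). Its intron reads fell from 195 and 166 to 65.6 and 69.4 (-1.40 on the log2 scale, SE 0.21, adjusted p = 3.95e-06). Its exon minus intron difference was 0.76 without passing (adjusted p = 0.0521). Stk4 (ENSMUSG00000018209, chromosome 2, 164070322 to 164155524) lay between means of 6443 and 6964 in the time course (0 of 5 comparisons called) and 4793 to 5358 in the rescue. Its log2 change from 0.1 to 2.5 µg/mL was -0.16 (SE 0.05, adjusted p = 0.00955), a call that held under every alternative. Its rise of 0.13 at 0.1 µg/mL (adjusted p = 0.0305) was lost without any library compared (adjusted p = 0.101 to 0.176). Sav1 (ENSMUSG00000021067, chromosome 12, 69965012 to 69987002), the scaffold that joins these kinases to Lats1 and Lats2, had 3261 and 3089 reads (0 h) and 3860 and 3813 (24 h) (log2 change 0.27, SE 0.05, adjusted p = 0.000101). It kept that level at 48 h and 96 h (0.23 above 0 h at both, adjusted p = 0.000418 and 0.00033). Its intron reads were also higher than at 0 h, by 0.27, 0.42 and 0.40 at 24, 48 and 96 h (adjusted p = 0.00436, 2.55e-05 and 3.56e-05), and in the rescue at 2.5 µg/mL exon and intron reads were both lower, -0.30 and -0.55 (adjusted p = 8.31e-05 and 5.46e-05). None of these 3 genes was called between genotypes in exon reads with all libraries, where Stk3 in the clones was 500.1 and 180 reads. Without library 1 of the clones, Stk3 was called lower in the clones than in wild type (-1.53 in place of -0.80, adjusted p = 0.0457), B9 (-1.70 in place of -0.97, adjusted p = 0.0345) and E7 (-1.75 in place of -1.01, adjusted p = 0.0365). Stk4 was then called lower than in wild type (-0.91 in place of -0.61, adjusted p = 0.0321).

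Yap1 (ENSMUSG00000053110, chromosome 9, 7931999 to 8004596) was the most abundant member per length of exon, with 3061 mean normalised reads per kb at 0 h. At the same time Stk4 had 1276, Sav1 1258, Ctgf 777, Wwtr1 538, Cyr61 481, Lats1 363, Stk3 354 and Lats2 120 per kb. At 96 h Lats2 had 451 per kb, above the 372 of Stk3 and below the 646 of Lats1. Yap1 exon reads were 12747 and 12777 (0 h) and 15437 and 15284 (96 h), a change of 0.27 (SE 0.04, adjusted p = 5.88e-06), of which 0.16 came after 48 h (adjusted p = 0.00439; 0.0699 without library 1 of 48 h). At 48 h Yap1 was 0.11 above 0 h (adjusted p = 0.0282), and that call was lost without any library compared and with upper-quartile scaling. In the rescue its log2 change was -0.14 at 0.1 µg/mL and -0.12 at 2.5 µg/mL (adjusted p = 0.0134 and 0.0293). With upper-quartile scaling these were -0.10 and -0.05 and did not pass (adjusted p = 0.0772 and 0.34). Both calls were also lost without either library of the group without doxycycline. The call at 0.1 µg/mL was lost without library 2 of that dose too, and the call at 2.5 µg/mL without library 1 of that dose. Yap1 was not called between genotypes, with means of 6916 to 8230. In the rescue its intron reads were 701 and 766 (none) and 515 and 512 (2.5 µg/mL), a log2 change of -0.51 (SE 0.10, adjusted p = 0.000165). Between the doses the intron change was -0.34 (adjusted p = 0.0107), a call lost without library 1 of 0.1 µg/mL (-0.27). The exon minus intron difference at 2.5 µg/mL was 0.43 without passing (adjusted p = 0.0816).

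Wwtr1 (ENSMUSG00000027803, chromosome 3, 57455649 to 57575910), which shares targets with Yap1, had 2596 and 2554 exon reads at 0 h, 3233 and 3509 (24 h), 3444 and 3643 (48 h), and 3654 and 3749 (96 h). All later libraries exceeded those of 0 h, and 24 h and 48 h overlapped. Most of its rise was present at 24 h (0.39, SE 0.06, adjusted p = 3.66e-06), and neither later step passed (0.07 and 0.06, adjusted p = 0.32 and 0.398). At 96 h it was 0.52 above 0 h (adjusted p = 1.53e-08), with an intron change of -0.06 (SE 0.18). The rescue gave 2978 and 2686 reads (none), 2440 and 2280 (0.1 µg/mL) and 2112 and 2148 (2.5 µg/mL), with no overlap between groups. The log2 change was -0.26 at the lower dose (SE 0.06, adjusted p = 0.00145; -0.19, adjusted p = 0.0829, without library 1 of the group without doxycycline) and -0.41 at the higher (adjusted p = 3.14e-06). In the genetic series the clone libraries, at 3227 and 1787, differed from each other by more than their mean differed from E7 (1496, 1883 and 2027), and no comparison passed.

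The target genes Cyr61 and Ctgf were lower at 24 and 48 h than at 0 h and rose from 48 to 96 h. Cyr61 (ENSMUSG00000028195, chromosome 3, 145646976 to 145649981), a secreted matrix protein of the CCN family, had 921 and 1031 exon reads at 0 h, 476 and 523 (24 h), 646 and 654 (48 h), and 1237 and 1082 (96 h). It was lowest at 24 h, and at 96 h both libraries were above those of every earlier time. The log2 change was -0.96 at 24 h (SE 0.10, adjusted p = 1.49e-08), followed by rises of 0.38 to 48 h and 0.83 to 96 h (adjusted p = 0.00257 and 3.38e-07). The net change at 96 h of 0.25 (adjusted p = 0.0258) was lost without library 1 of 0 h (0.17, adjusted p = 0.232), without library 1 of 96 h (0.15, adjusted p = 0.258) and with upper-quartile scaling (0.17, adjusted p = 0.124). Its intron reads were few, 6.73 and 7.26 (0 h), 3.29 and 1.53 (24 h), and 27.1 and 23.0 (96 h), a rise of 1.70 (SE 0.72, adjusted p = 0.054; 0.0229 with a pseudocount of 5). On introns Cyr61 passed the filter on low values only through its reads at 96 h. In the rescue it had 959 and 850 reads (none), 779 and 694 (0.1 µg/mL) and 695 and 754 (2.5 µg/mL). Both doses were lower than none, with log2 changes of -0.30 and -0.32 (adjusted p = 0.0156 and 0.00602). These calls were lost without library 1 of the group without doxycycline (adjusted p = 0.218 and 0.122), the first also without library 2 of 0.1 µg/mL (0.17), and the second without library 1 of 2.5 µg/mL (0.0528).

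Among genotypes Cyr61 was high in wild type and the clones. It had 1665 and 1195 reads (wild type), 524 and 317 (B9), 688, 559 and 424 (E7), and 1229 and 951 (clones). Wild type and the clones overlapped, as did B9 and E7, and the 2 pairs of groups did not. Against E7 the clones were 0.98 higher on the log2 scale without passing (SE 0.32, adjusted p = 0.139 with limma). E7 was lower than wild type (log2 change -1.37, SE 0.32, adjusted p = 0.0347, with 4.56% of genes called). This was 1 of 9 members called, and the call was lost without either wild-type library (adjusted p = 0.256 and 0.151) and without library 2 or 3 of E7 (0.105 and 0.103). For B9 the log2 change against wild type was -1.79 without passing (SE 0.35, adjusted p = 0.0822), where 0 of 9 members and 0.0685% of genes passed with limma, 2 of 9 members at an unadjusted p below 0.05. The clones were 1.40 above B9 (SE 0.35, adjusted p = 0.0255), a call lost without library 2 of B9 (adjusted p = 0.16), without either clone library (0.0541 and 0.0525) and with only these groups fitted (0.0649).

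Ctgf (ENSMUSG00000019997, chromosome 10, 24595442 to 24598683), a matrix protein of the same family, moved within a narrower range. Its exon reads were 1825 and 1907 (0 h), 1703 and 1533 (24 h), 1343 and 1414 (48 h), and 2241 and 1789 (96 h). It fell to 48 h (-0.44 against 0 h, SE 0.08, adjusted p = 7.59e-05) and rose by 0.54 to 96 h (adjusted p = 2.01e-05), where it overlapped 0 h (0.10, adjusted p = 0.288). The separate steps to 24 h and from 24 to 48 h (-0.21 and -0.23, adjusted p = 0.0416 and 0.0313) were lost without any of several libraries and without the filter on low values (adjusted p = 0.0919 and 0.0794). In the rescue 1740 and 1684 reads (none) stood against 1571 and 1567 (0.1 µg/mL) (-0.13, adjusted p = 0.169) and 1182 and 1313 (2.5 µg/mL) (-0.46, SE 0.07, adjusted p = 4.11e-06). Among genotypes Ctgf had 2262 and 2005 reads (wild type), 868 and 628 (B9), 1816, 1129 and 751 (E7) and 1648 and 1306 (clones), and no comparison passed. Ctgf intron reads were between 0 and 36.8 per library, too few to show changes of this size (SE 0.53 to 1.58).

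Ankrd1 (ENSMUSG00000024803, chromosome 19, 36111961 to 36120099), a repeat protein of muscle that is a strong Yap target in other cells, was close to silent and did not pass the filter. Reads were found in 5 of 23 libraries: 45 in 1 wild-type library, 8 and 14 in those of B9, 2 in 1 clone library and 2 in 1 library at 0.1 µg/mL. The 18 others had 0 exon reads, which allows up to 1.96 to 5.55 normalised reads by a limit of 3 reads for counting error. All 8 time course libraries were among them.

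The Tead factors recognise GGAATG, or CATTCC on the other strand, and this hexamer was looked for in the 300 bases around the transcription start (250 before to 50 after, RefSeq, GRCm38.p6). It occurs in 14.7% of 32851 such promoters. Of the members 8 had a promoter entry, and Lats1 and Stk4 held 0 matches. The Cyr61 promoter held 1, with its first base 103 bases before the start, and that of Ankrd1 held 2, at 210 and 123 bases before the start. The Cyr61 sequence is shown because that gene had the largest early fall, with the match in capitals.
Cyr61 promoter, chr3:145649936-145650235, minus strand: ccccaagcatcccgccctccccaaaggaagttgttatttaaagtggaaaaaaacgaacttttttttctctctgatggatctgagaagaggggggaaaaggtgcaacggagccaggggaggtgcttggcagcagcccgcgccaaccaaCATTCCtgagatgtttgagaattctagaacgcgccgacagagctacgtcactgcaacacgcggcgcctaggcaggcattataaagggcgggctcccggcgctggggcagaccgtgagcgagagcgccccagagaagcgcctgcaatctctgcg
Sav1 and Yap1 held 1 match each, and Lats2 held 1 in 1 of 2 promoters. The 2 listed promoters of Wwtr1 overlap and hold the same match. Ctgf and Stk3 had no promoter entry and were not searched.

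Other parts of the pathway were read from lists of genes. Of 29 other Hippo regulators (upstream scaffolds, kinases and junction proteins) 27 were in the tables and 26 were tested. From 0 to 96 h 15 rose, 4 fell and 7 did not pass, where 65% of all genes were called. The median log2 change was 0.24. Map4k1, a kinase of the group that can phosphorylate Lats, rose from 754 ± 67.4 to 1779 ± 33.6 (1.24, SE 0.08, adjusted p = 1.67e-12). The scaffold Dlg5 rose from 3688 ± 91.1 to 8154 ± 377 (1.14), and the kinase Mink1 from 3680 ± 102 to 6956 ± 39.6 (0.92). The atypical cadherin Dchs1 had the largest change in size and was low, falling from 39.2 ± 7.45 to 13.8 ± 0.353 (-1.42, SE 0.35, adjusted p = 0.0011). At 2.5 µg/mL 18 were lower, 5 higher and 3 not called (median -0.52), where 63.8% of all genes were called. The cofactor of Lats Mob1b fell from 1912 ± 8.08 to 764 ± 34.4 (-1.32, adjusted p = 2.63e-14), Map4k1 from 1249 ± 114 to 524 ± 68.7 (-1.26) and Stk38, a kinase related to Lats, from 9873 ± 221 to 4595 ± 81.0 (-1.103). Dchs1 again differed most (1.70, SE 0.72, adjusted p = 0.0404), from 6.37 ± 6.23 to 19.4 ± 9.54 reads. In the clones against wild type 8 were higher and 0 lower, with 18.6% of all genes called. Frmd6 (775 ± 7.89 to 3260 ± 1045, log2 change 2.03, adjusted p = 0.00169), Map4k1 (1.79), Mink1 (1.57) and Dlg5 (1.24) led. E7 against wild type had 5 higher and 0 lower (4.56% of all genes called), of which Frmd6 (1.87, SE 0.27, adjusted p = 0.00562), Map4k1 (1.101, adjusted p = 0.0399), Nf2 and Stk38l were also among the 8 of the clones. The clones against B9 had 6 higher and 0 lower (13% of all genes called). Between the clones and E7 0 of 26 passed with limma, 5 at an unadjusted p below 0.05, with 1.51% of all genes called.

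The Tead factors and their Vgll cofactors were tested in 6 of 8 cases. At 96 h 4 had risen and 0 had fallen (median 0.93), with Tead4 from 1563 ± 79.0 to 3435 ± 162 (1.14, SE 0.06, adjusted p = 1.61e-13), Tead3 from 210 ± 10.6 to 518 ± 55.9 (1.30), Vgll4 from 199 ± 0.0342 to 329 ± 11.9 (0.72) and Vgll1 from 10.8 ± 12.6 to 24.2 ± 1.32 (1.69, SE 0.70, adjusted p = 0.0383). At 2.5 µg/mL Tead3, Tead4 and Tead1 were lower (-0.72, -0.70 and -0.53) and Tead2, a Tead abundant in ES cells, was higher (0.44, adjusted p = 1.73e-07). Of all genes 63.8% were called there. In the clones against wild type 2 of 6 were higher, Tead4 (2.05, SE 0.50, adjusted p = 0.0179) and Vgll4 (1.61), with 18.6% of all genes called. Against E7 0 of 6 passed with limma, 1 at an unadjusted p below 0.05, with 1.51% of all genes called.

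The list of 18 other Yap/Taz targets, a signature from cancer studies without Ctgf, Cyr61 and Ankrd1, had 15 tested. At 96 h 8 had risen, 2 had fallen and 5 did not pass (median 0.50). The receptor kinase Axl rose from 157 ± 0.703 to 563 ± 50.01 (1.83, SE 0.13, adjusted p = 2.58e-11), the membrane protein Myof from 6347 ± 441 to 15821 ± 226 (1.32), the kinase Nuak2 from 583 ± 3.89 to 1300.1 ± 25.5 (1.16) and Arhgef17 by 1.08. At 2.5 µg/mL 7 were lower, 3 higher and 5 not called, with Tgfb2 (73.5 ± 28.7 to 25.0 ± 20.6, log2 change -1.73), Myof (-1.37), Axl (-1.35) and Dock5 (-1.18) the lowest. In the clones against wild type Myof rose (1025 to 9241, log2 change 3.17, SE 0.33, adjusted p = 0.000402), as did Dock5 (1.18) and Arhgef17 (1.099), and Igfbp3 fell by 2.41 (adjusted p = 0.00308). Of these 4, 3 were also called in E7 against wild type: Myof (2.45, SE 0.31, adjusted p = 0.00307), Dock5 (1.19, adjusted p = 0.0364) and Igfbp3 (-2.82, adjusted p = 0.00336). The clones against B9 had 5 higher and 0 lower. Between the clones and E7 0 of 15 passed with limma, 4 at an unadjusted p below 0.05, with 1.51% of all genes called. Amotl2 and Ptpn14 are in this list and in that of the regulators. These counts can be read against 65% of all genes called at 96 h and 63.8% at 2.5 µg/mL. Among genotypes the shares were 18.6% for the clones against wild type, 13% against B9, 1.51% against E7 and 4.56% for E7 against wild type. The counts are not evidence of a change particular to these lists.

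**Figure D4:**
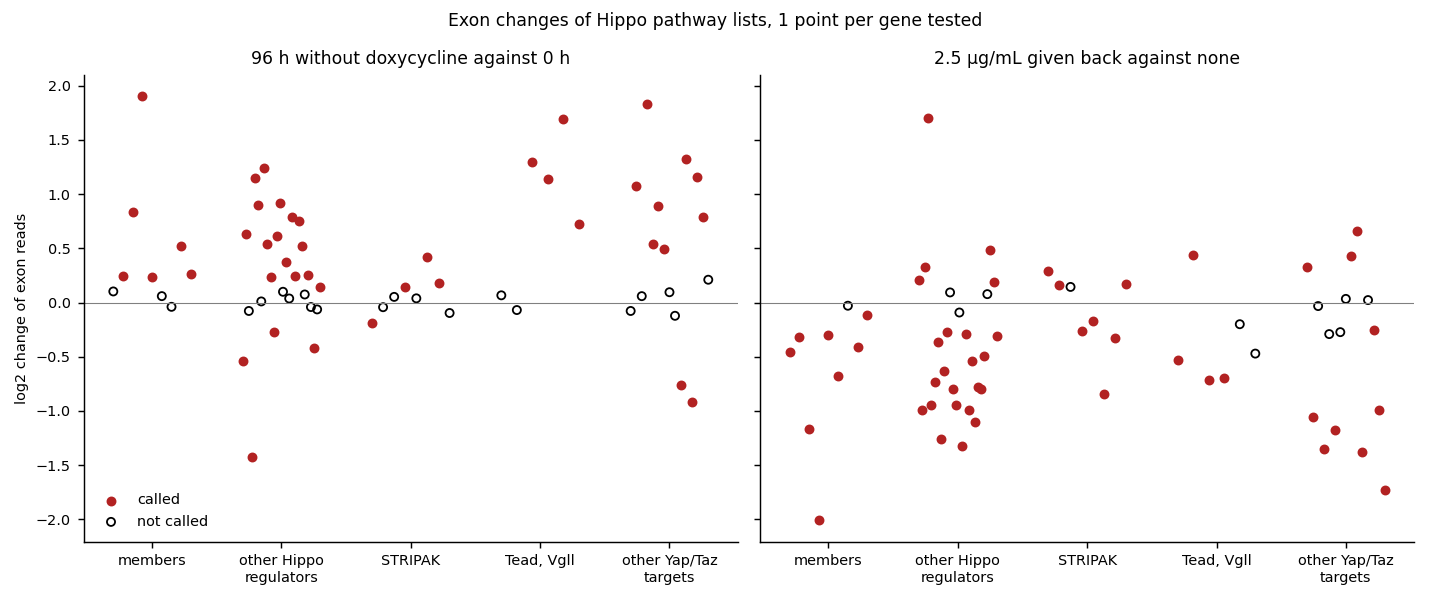
Log2 change of exon reads (vertical) of each gene tested, in 5 groups of Hippo genes (horizontal), from 0 to 96 h (left) and from no doxycycline to 2.5 µg/mL (right); filled points passed an adjusted p of 0.05. Of the 26 other Hippo regulators 15 rose and 4 fell on the left, and 5 rose and 18 fell on the right. Over all genes 65% were called on the left and 63.8% on the right.

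Markers of differentiated cells were measured beside these changes. The 4 mesoderm and primitive streak markers tested (Evx1, Gsc, Kdr and Mixl1) were higher at 96 h than at 0 h and lower at 2.5 µg/mL than without doxycycline, where 65 and 63.8% of all genes were called. Their list of 6 summed to 239 to 259 normalised reads per library at 0 h, 811 to 839 at 96 h, 630 to 635 in the rescue without doxycycline and 126 to 129 at 2.5 µg/mL. T was at 0 at 96 h. The trophoblast, primitive endoderm and neural lists had 0, 1 and 1 members higher and 2, 3 and 1 lower at 96 h, of 6, 6 and 4 tested. Fibroblast markers summed to 272 to 277 at 0 h and 348 to 419 at 96 h, with Pdgfra and Thy1 called higher of 3 tested. Their part in the results above was not tested.

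Over the 7 group means of the time course and rescue, the genes with the pattern most like Lats2 were Rreb1 (Pearson correlation 0.996 on centred log2 exon means), Xpnpep2, Rbm20, Tfip11 and Itm2b (0.995), out of 13149 genes. For Ctgf they were Col6a5 (0.991), Iba57, Ddb2, Ap1m1 and Gjc1 (0.975). With 7 points from shared libraries, high correlations are easily reached. How many genes reach such values was not counted.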

How the data were processed

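The 23 strand-specific libraries of poly(A) RNA were mapped and normalised by the authors. TopHat2 2.0.12, DESeq and build mm10 are named in the submitters' processing notes; which read counter, annotation and DESeq version they used is "not given in the sources used here". The 6 deposited tables (exons and introns of 3 series) hold 1 signal value per gene and group, with the groups named in the file headers. Each value was taken as the authors' mean of normalised reads. Values of single libraries were recovered here: each mean was solved for the whole numbers of reads that give it, at 15 significant digits. This gave 1 solution for 404962 of 405064 values (99.975%). The 102 others were all in E7, 101 exon genes and 1 intron gene, with no member among them, and left 6 of 10 ES cell markers untested in the genetic series. Recovery and tests were checked on simulated data.

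With the authors' size factors kept, log2(normalised reads + 1) went into limma 3.58.1 (R 4.3.3, trended prior). Each table had its own fit, which took in every group of the series. A gene entered if its mean over the series' libraries was 10 or more, and p-values were adjusted by Benjamini-Hochberg within each comparison, across all genes entered, with a limit of 0.05. The 14 comparisons were run on exons, on introns and on exon minus intron. For the last, the pairing of exon with intron libraries was taken from how their differences correlate, and each library was centred on its median gene. Folds are on the log2(value + 1) scale and understate changes of low genes. The counting is not stated to use strand, so reads of overlapping genes cannot be told apart. The series were normalised separately, so levels are not compared between them. Lengths are those in the tables. GENCODE M21 (GRCm38) held 18356 of 18412 symbols, with Ctgf as Ccn2 and Cyr61 as Ccn1, and gave the longest 3' UTR per gene.

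The members and all lists were chosen with earlier results of these data known. All 10 members are named. From each other list up to 4 called genes with the largest change are named per main comparison, and as most alike the 5 genes with the highest correlation. Alternatives were a pseudocount of 5, no filter, 2 other scalings, limma voom, a fit of only the groups compared, the opposite pairing of libraries, and leaving out each library.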

Additional observations from a re-analysis of the deposited data

How the results depend on the processing

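Of the 54 calls on members in exon reads, 37 held under every alternative run, 8 were lost only by leaving out a library and 9 in another alternative as well or instead; of 17 calls in introns 6 held throughout, and of 6 on exon minus intron 0. No call changed direction. The Lats2 calls in exon reads (clones against wild type, B9 and E7, and all 8 comparisons in TT-FHAgo2 cells) and the Lats1 calls in TT-FHAgo2 cells held under every alternative.

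Fitting only the groups compared left 1 called member in exons for clones against B9, where 3 were called. Leaving out a library, the number of members called in exons was 1 to 3 for clones against wild type, 1 to 2 against E7, 1 to 2 against B9, 0 to 1 for E7 against wild type and 2 to 5 at 0.1 µg/mL. In introns it was 1 to 2 at 24 h, 0 to 1 from 48 to 96 h, 1 to 2 at 48 h and 1 to 2 at 96 h against 0 h, and 1 to 3 between doses; these and the exon minus intron refits were added after seeing the data. On exon minus intron it was 0 to 0 at 48 h, at 96 h and at 2.5 µg/mL. With no filter 1 member was called in introns from 48 to 96 h, and on exon minus intron 1 at 48 h, 1 at 96 h and 0 at 2.5 µg/mL. A pseudocount of 5 gave 1 in introns at 0.1 µg/mL, and on exon minus intron 1 at 24 h and 2 at 2.5 µg/mL, where the opposite matching also gave 2. Some values that passed no test with all libraries passed or turned in another setting: Stk3 from 0 to 96 h (0.06) was 0.24 and -0.12 without library 1 or 2 of 96 h (adjusted p = 0.0344 and 0.303) and -0.0215 with upper-quartile scaling, and from 48 to 96 h (-0.11) it was 0.0649 and -0.29 (adjusted p = 0.661 and 0.0213). Without the same libraries Ctgf from 0 to 96 h (0.10) was -0.06 and 0.26 (adjusted p = 0.55 and 0.00646). Lats2 introns between doses were 0.0127 and -0.80 without library 1 or 2 of 2.5 µg/mL (adjusted p = 0.978 and 0.0161). Stk3 passed from 0 to 48 h when only these groups were fitted (adjusted p = 0.0466), and Stk4 fell by 0.12 from 0 to 96 h with upper-quartile scaling (adjusted p = 0.0212). The causes were not tested. With 1 library left in a group, that library is assumed to vary like the other groups. The share of all genes called was worked out for the main fit only, so counts of members in refits have no such background.

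No paired analysis was possible because the deposited columns are group means that carry no replicate numbers, so recovered libraries could not be tied to the labels' replicates. Depth limits the introns of Ctgf and Cyr61 and all reads of Ankrd1.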

Other observations

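The STRIPAK phosphatase complex, which removes the activating phosphate from Stk3 and Stk4, had 4 of 8 genes called at 96 h, where 65% of all genes were called. Strn rose from 1631 ± 107 to 2175 ± 116 normalised exon reads (log2 change 0.42, SE 0.07, limma adjusted p = 1.59e-05), Strn3 by 0.18 and Slmap by 0.14, and Ppp2ca fell by 0.19. At 2.5 µg/mL 4 of 8 were lower than without doxycycline and 3 higher (63.8% of all genes called), with Strn (-0.84), Strn3 (-0.33), Ppp2ca (0.29) and Slmap (-0.27) changing most. Strn was also the only one of the 8 called in the clones against wild type, with 18.6% of all genes called (623 ± 43.4 to 1249 ± 62.2, log2 change 1.003, SE 0.29, adjusted p = 0.0348). In the clones against E7 0 of 8 passed, with 0 at an unadjusted p below 0.05 and 1.51% of all genes called.

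Of 10 ES cell markers 5 rose and 5 fell at 96 h (65% of all genes called). Fgf4 rose from 18137 ± 532 to 32068 ± 462 (log2 change 0.82) and Nanog by 0.54, while Utf1 fell by 0.63 and Zfp42 by 0.48. At 2.5 µg/mL the log2 change against no doxycycline was 1.06 for Utf1 and -0.65 for Fgf4.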
